A study of Homo sapiens with 20 samples.

Results

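A set of 10 solute carrier genes that move amino acids across the plasma membrane was followed in ChIP-seq data of PC-3 cells, an established human prostate cancer line. The genes are SLC7A5, SLC3A2, SLC1A5, SLC7A11, SLC7A1, SLC38A1, SLC38A2, SLC43A1, SLC1A4 and SLC7A6, of 20033 protein-coding genes in GENCODE release 44 on chromosomes 1 to 22, X and Y. They were listed by name, and a summit was assigned to a gene when it lay within 1 kb of any of its annotated transcription start sites (TSS), or inside the gene and farther than 1 kb from each of them. Chromatin was precipitated with an antibody to the transcription factor c-Myc (MYC) or to RNA polymerase II (POL2). Wild-type (WT) cells were compared with cells in which the kinase gene SLK was knocked out (SLK-KO, which the labels also call PSD10). The title of the study names SLK as a co-regulator of c-Myc, and the comparison asks whether its loss goes with a different placement of MYC and POL2. The deposited design text calls the 3 replicates of each group biological. Whether the SLK-KO cells are a single clone is not stated, and all replicates carry the PC-3 background.

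Free amino acids carry charges and cross the plasma membrane mainly through carriers. SLC3A2 is the heavy chain of several heterodimers and brings its light chains to the cell surface. SLC7A5 with SLC3A2 takes up leucine and other large neutral amino acids in exchange for glutamine, SLC7A11 with SLC3A2 takes up cystine in exchange for glutamate, and SLC7A6 with SLC3A2 exchanges cationic for neutral amino acids. SLC1A5 is a glutamine exchanger, and SLC38A1 and SLC38A2 take up glutamine and alanine together with sodium. SLC7A1 carries arginine and lysine, SLC1A4 carries alanine, serine and cysteine, and SLC43A1 carries large neutral amino acids by facilitated diffusion. MYC binds DNA with its partner MAX, preferring the E-box CACGTG, and raised expression of glutamine and leucine carriers in MYC-driven tumours is well known. ATF4, the factor of the amino acid response, acts with C/EBP proteins on elements with the core TGATGNAA in many of these genes.

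The series holds 20 samples, of which the 12 MYC and POL2 libraries have a list of 1-bp peak summits each. The 6 IgG and 2 Input samples were not used here. For MYC, replicates 1 to 3 had 365, 201 and 267 summits in WT cells and 1218, 1420 and 988 in SLK-KO cells. For POL2 the numbers were 17126, 5047 and 9925 (WT) and 19017, 15436 and 16298 (SLK-KO). WT replicate 2 has the shortest list of both antibodies and stands apart in POL2, so some of the results that rest on it are also given without it. The lists hold no reads, so depth is unknown, and list length and genotype cannot be told apart in a count of genes with a summit. Among cell type markers, KRT8, KRT18, KRT19, VIM and TMPRSS2 had a POL2 promoter summit in all 6 libraries. EPCAM had one in 1 WT and 3 SLK-KO libraries. KLK3 and KLK2, genes of the luminal prostate, had none. The targeted gene SLK had a POL2 promoter summit in 2 WT and 3 SLK-KO libraries, which does not test the knockout.

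The sequences below are those on which the MYC results turn, with CACGTG and the variant E-box CACGCG in capitals on either strand. The first 3 surround MYC summits and the fourth is the single canonical E-box near one. Some other MYC summits of the same SLC3A2 sites lie outside the printed stretches. They come from GRCh38 on the strand of the gene. For the site beside the first SLC3A2 TSS, the stretch from chr11:62855946-62856003 ends at the base before the annotated gene. The second stretch, chr11:62881401-62881501, spans the end of the first coding exon and the start of intron 1 of SLC3A2. The third, chr13:29594930-29595030, lies in intron 1 of SLC7A1, and the fourth, chr16:87868717-87868742, in intron 1 of SLC7A5.
SLC3A2 first TSS: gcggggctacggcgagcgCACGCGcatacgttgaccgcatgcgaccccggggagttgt
SLC3A2 exon 1 and intron 1: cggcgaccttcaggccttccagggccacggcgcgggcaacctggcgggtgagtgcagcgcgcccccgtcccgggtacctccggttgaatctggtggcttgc
SLC7A1 intron 1: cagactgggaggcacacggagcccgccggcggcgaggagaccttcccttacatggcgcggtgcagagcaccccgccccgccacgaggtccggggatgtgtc
SLC7A5 intron 1: tcccagaaacCACGTGcgtttctttc
The 3 longer stretches hold no CACGTG, and the SLC3A2 site holds 1 CACGCG.

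Upstream stretches of 3 members show how the E-box and the summits fall at different genes. SLC7A5 (chr16:87869508-87869757) has an E-box before its start and a MYC summit in 1 library, inside the gene. SLC43A1 (chr11:57515781-57515952, outside the annotated gene) has an E-box directly followed by the variant and no summit of either antibody near it. SLC38A2 (chr12:46372774-46373023) has neither motif, no MYC summit, and the best-ranked POL2 summit of the 10 genes.
SLC7A5 upstream: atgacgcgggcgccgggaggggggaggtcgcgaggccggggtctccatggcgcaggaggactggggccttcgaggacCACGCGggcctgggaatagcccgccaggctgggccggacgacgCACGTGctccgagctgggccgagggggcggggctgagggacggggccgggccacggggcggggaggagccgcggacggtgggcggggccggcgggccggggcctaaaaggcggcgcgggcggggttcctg
SLC43A1 upstream: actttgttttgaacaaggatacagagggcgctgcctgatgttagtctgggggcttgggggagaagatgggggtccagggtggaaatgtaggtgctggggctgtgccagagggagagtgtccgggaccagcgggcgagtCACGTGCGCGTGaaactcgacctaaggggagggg
SLC38A2 upstream: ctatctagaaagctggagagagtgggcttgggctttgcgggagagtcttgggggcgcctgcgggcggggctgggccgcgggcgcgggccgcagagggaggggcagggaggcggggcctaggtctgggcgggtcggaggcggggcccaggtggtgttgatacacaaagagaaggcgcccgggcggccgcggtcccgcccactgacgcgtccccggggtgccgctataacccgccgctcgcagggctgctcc
The bases of the SLC7A5 and SLC38A2 stretches are the 250 before the RefSeq start (GRCh38.p14).

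POL2 was found at the promoters of more of these genes than MYC, whose lists are much shorter. POL2 summits lay within 1 kb of a TSS of 9 of the 10 genes in at least 1 of 6 libraries, against 53.7% of all coding genes. In 6 of 6 libraries they lay at 6 of the 10 genes (SLC38A2, SLC3A2, SLC7A5, SLC38A1, SLC1A5 and SLC7A11), against 18.0% of all coding genes. At least 2 WT libraries had one at 8 genes (35.3% of all coding genes) and at least 2 SLK-KO libraries at 8 genes (47.3%). None of the 10 genes had a POL2 promoter summit in 3 SLK-KO and 0 WT libraries, a pattern of 1.54% of coding genes. No test was made of these shares, because the genes were chosen by name with earlier results known.

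MYC summits lay within 1 kb of a TSS of 4 of the 10 genes (SLC3A2, SLC7A1, SLC7A5 and SLC38A1) in at least 1 of 6 libraries, against 9.66% of all coding genes. The 3 of these genes that have POL2 in 6 of 6 libraries stand beside a background of 29.1%, the share with MYC among the 3615 coding genes with POL2 in 6 of 6, where 6 members belong. None of the 10 had MYC in 6 of 6 libraries (0.494% of coding genes). SLC3A2 alone had MYC in at least 2 WT libraries (1.15% of coding genes), and SLC3A2 and SLC7A1 had it in at least 2 SLK-KO libraries (4.76%). None had it in 3 SLK-KO and 0 WT libraries (0.874%). SLC7A5 and SLC38A1 were listed only in SLK-KO replicate 2, the longest MYC list, and without that library 2 genes had a MYC summit. No member had a MYC summit in its gene body.

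**Figure D1:**
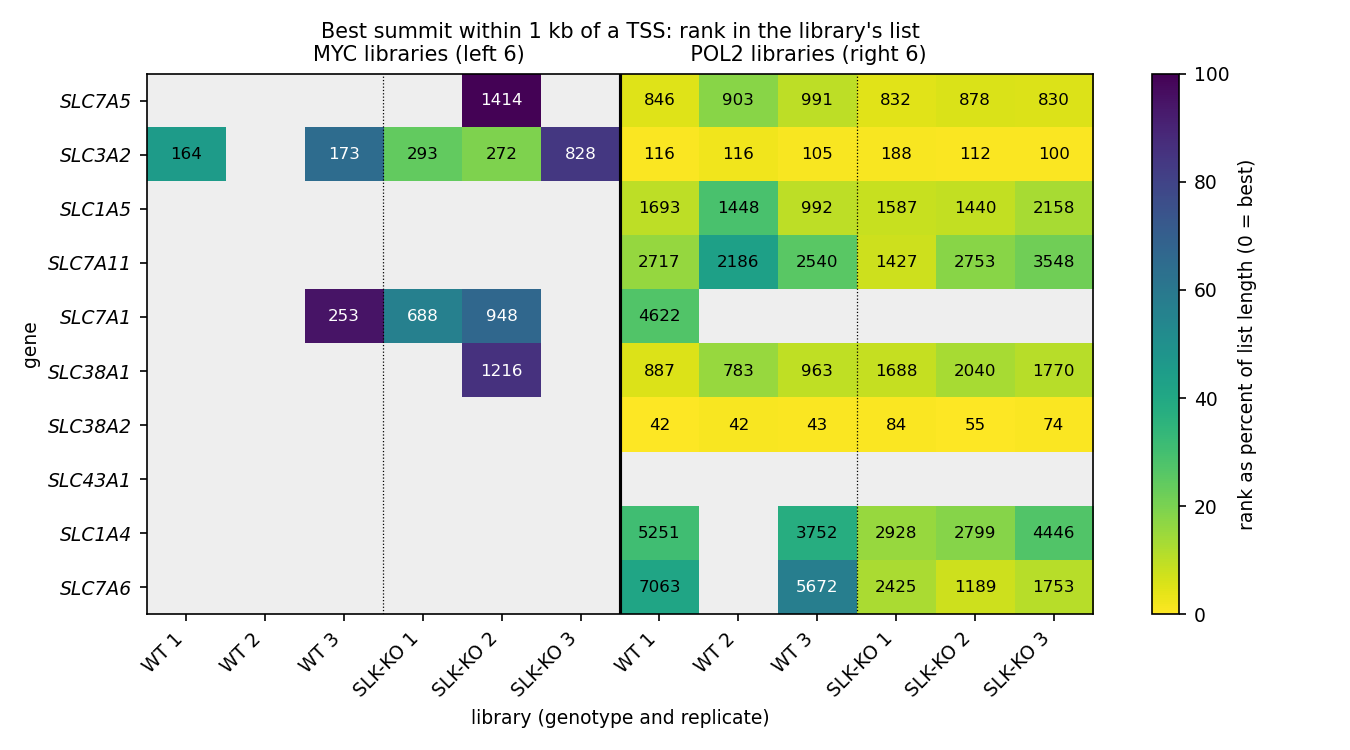
Rank of the best MYC (left) and POL2 (right) summit within 1 kb of a TSS of each gene (rows) in each library (columns), printed in the cell and coloured by the rank as a percent of the list's length, with grey where the list has none. SLC38A2 and SLC3A2 hold POL2 ranks between 42 and 188 in all 6 libraries, and the MYC columns are mostly grey.

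The heavy chain gene SLC3A2 (ENSG00000168003.19, chromosome 11, 62856004 to 62888880, plus strand) was the member with MYC in the most libraries. It has 41 annotated transcripts with 21 distinct TSS, and 2 promoters with POL2 in all 6 libraries, at its first TSS and at its canonical TSS at 62880896. The MYC summits at the first TSS were at positions 62855995 to 62856057 and ranked 164 in WT replicate 1, 173 in WT replicate 3, 293 in SLK-KO replicate 1 and 272 in SLK-KO replicate 2. WT replicate 2 and SLK-KO replicate 3 had none there. These summits also lay 42 to 104 bp from a TSS of SNHG1, a non-coding host gene of small nucleolar RNAs. The lists cannot assign a summit to either gene. The MYC summits at the canonical promoter lay 441 to 629 bp downstream of that TSS and ranked 239 in WT replicate 3, 500 in SLK-KO replicate 1 and 828 in SLK-KO replicate 3. They also lay upstream of a nearer annotated TSS of the gene, at −361 to −173 bp from it. Each genotype thus had libraries with and without MYC at both places.

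POL2 at the first SLC3A2 TSS ranked 116, 116 and 105 in the WT lists and 188, 112 and 100 in the SLK-KO lists. These 6 summits fell within 16 bp of each other, at −155 to −139 bp from the first SLC3A2 TSS and 1 to 4 bp from a TSS of SNHG1. At the canonical TSS the POL2 summits lay 30 to 81 bp downstream, in the 5' untranslated part of exon 1, and ranked 458, 254 and 426 in WT and 382, 611 and 328 in SLK-KO. The WT and SLK-KO ranks overlapped at both promoters. The MYC summit at the first TSS lay 138 to 208 bp from the POL2 summit of the same-numbered library, and the one at the canonical promoter 382 to 581 bp.

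Farther into SLC3A2, each SLK-KO library had 2 more POL2 summits and no WT library had any. They lay in intron 3, 2696 to 3300 bp from the canonical TSS, and in intron 7, 5446 to 6933 bp from it. Their ranks were low, at 11072 and 14587 in SLK-KO replicate 1, 14480 and 13460 in replicate 2 and 11532 and 16109 in replicate 3. All these ranks are beyond the length of the WT replicate 2 and 3 lists, and the WT replicate 1 list reaches 17126. Most lie within 1 kb of other annotated TSS of the gene and count there as promoter summits. With only the canonical TSS they are body summits, and SLK-KO exceeded WT by 1.19 per 10000 summits (exact permutation p = 0.1, the smallest possible). With all TSS of the gene the difference in body summits was 0.216, and the genotypes overlapped. In that setting 9.98% of 4279 coding genes had every SLK-KO library above every WT library, and 1.50% had every one below. The share with only the canonical TSS is not given here.

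**Figure D2:**
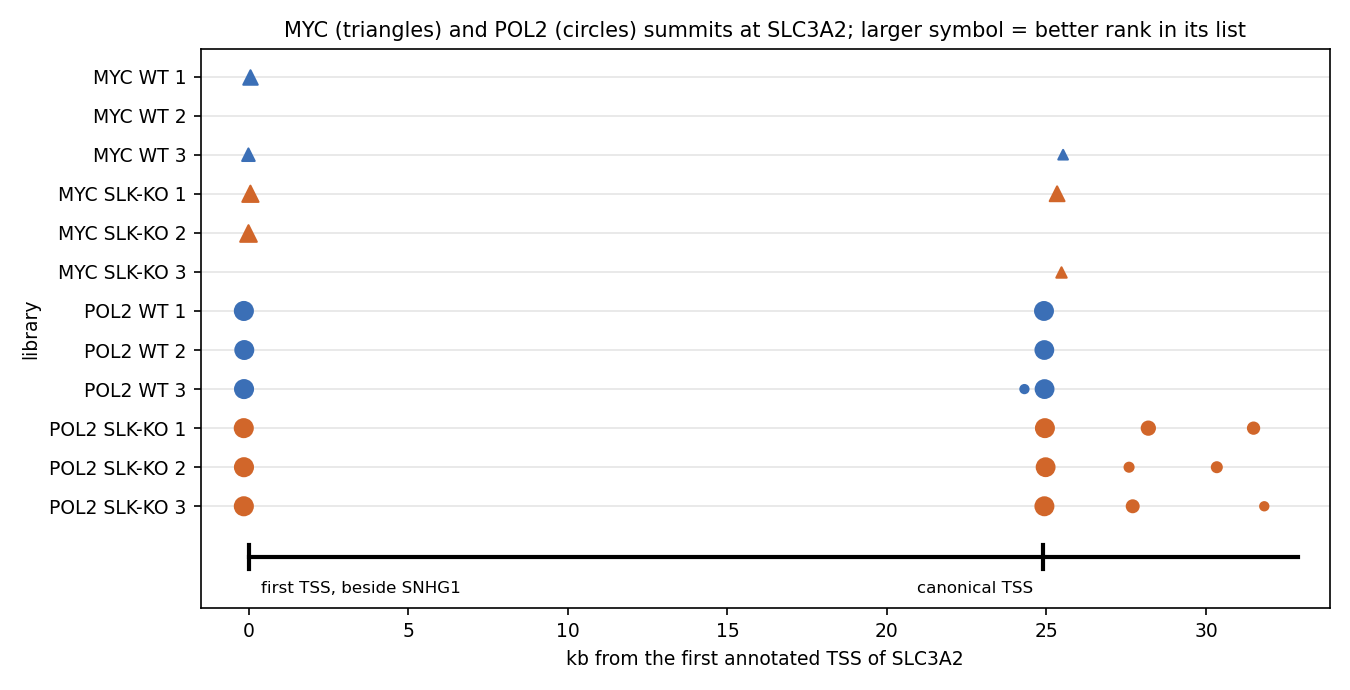
Position of MYC (triangles) and POL2 (circles) summits in kb from the first annotated TSS of SLC3A2, 1 row per library, WT in blue and SLK-KO in orange, with larger symbols for better ranks in the library's own list. POL2 stands at both marked promoters in all 6 libraries, and the small circles beyond the canonical TSS are in the 3 SLK-KO rows.

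The light chain gene SLC7A5 (ENSG00000103257.9, chromosome 16, 87830023 to 87869507, minus strand) had POL2 31 to 88 bp downstream of its TSS in all 6 libraries. Its ranks were 846, 903 and 991 in WT and 832, 878 and 830 in SLK-KO, a narrow span in lists of very different length. Its only MYC summit was in intron 1 at 87868684, 823 bp downstream of the TSS. It ranked 1414 of the 1420 summits of SLK-KO replicate 2, with a score (−log10 of the q-value) of 1.46. CACGTG lay 45.5 bp from that summit, in the stretch printed above.

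SLC7A11, the cystine carrier gene (ENSG00000151012.13, chromosome 4, 138164097 to 138242349, minus strand), had POL2 from 43 bp before to 44 bp after its TSS. Its ranks were 2717, 2186 and 2540 in WT and 1427, 2753 and 3548 in SLK-KO. The SLK-KO libraries spanned the WT libraries, and no library had MYC within 1 kb. The nearest MYC summit in any library lay 1908771 bp from its canonical TSS.

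SLC7A6, the last light chain gene (ENSG00000103064.15, chromosome 16, 68264516 to 68301823, plus strand), had POL2 promoter summits in WT replicates 1 and 3 and in all SLK-KO libraries. They ranked 7063 and 5672 in the WT lists and 2425, 1189 and 1753 in the SLK-KO lists. The SLK-KO summits lay 737 to 782 bp downstream of the canonical TSS in intron 1, as did that of WT replicate 1 at 764 bp, while that of WT replicate 3 lay at 66 bp. The SLK-KO summits thus stood nearer the top of their lists. WT replicate 2 had none, and its nearest POL2 summit was 841636 bp away. No MYC summit lay within 1 kb.

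The cationic carrier gene SLC7A1 (ENSG00000139514.13, chromosome 13, 29509414 to 29595688, minus strand) was the second member with MYC in several libraries. Its MYC summits were in intron 1 at 29594946 to 29594983, 705 to 742 bp from the TSS. They ranked 253 in WT replicate 3, 688 in SLK-KO replicate 1 and 948 in SLK-KO replicate 2. POL2 was found 555 bp from the TSS in WT replicate 1 (rank 4622) and, just past the 1 kb window, at 1024, 1110 and 1222 bp in the 3 SLK-KO libraries (ranks 5453, 5986 and 5954). In SLK-KO replicates 1 and 2 the POL2 summit lay 282 and 405 bp from the MYC summit. No library had POL2 at the TSS itself, and WT replicates 2 and 3 had none nearer than 254517 bp.

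Among the glutamine carriers, SLC38A2 (ENSG00000134294.14, chromosome 12, 46358188 to 46372773, minus strand) had the best POL2 ranks. They were 42, 42 and 43 in WT and 84, 55 and 74 in SLK-KO, from summits 38 to 97 bp downstream of the TSS in the 5' untranslated part of exon 1. Every SLK-KO library ranked it behind every WT library, and its worst rank was 43 in WT and 84 in SLK-KO. As a percent of list length the ranks were 0.245, 0.832 and 0.433 in WT and 0.442, 0.356 and 0.454 in SLK-KO, which overlap. WT replicate 2, the shortest POL2 list, also had 3 summits 8422 to 11174 bp from the TSS, in introns 10, 13 and 15, at ranks 3103, 3555 and 2674. No other library had these, and no library had MYC within 1 kb.

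Its neighbour SLC38A1 (ENSG00000111371.16, chromosome 12, 46183063 to 46270017, minus strand) had POL2 88 to 158 bp downstream of its canonical TSS. It ranked 887, 783 and 963 in WT and 1688, 2040 and 1770 in SLK-KO, again with every SLK-KO library behind every WT library. As a percent of list length the ranks were 5.18, 15.5 and 9.70 in WT and 8.88, 13.2 and 10.9 in SLK-KO, which overlap. Its MYC summit, in SLK-KO replicate 2 alone, lay 198 bp from the canonical TSS at rank 1216 of 1420 and 72 bp from the POL2 summit of the same-numbered library. That MYC summit also lay upstream of a nearer annotated TSS of the gene, at −39 bp from it.

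SLC1A5 (ENSG00000105281.12, chromosome 19, 46774883 to 46788594, minus strand) had POL2 14 to 44 bp downstream of its TSS at ranks 1693, 1448 and 992 in WT and 1587, 1440 and 2158 in SLK-KO. The groups overlapped. A TSS of the gene ENSG00000275719 lies 735 to 765 bp from these summits. No library had MYC within 1 kb, and the nearest MYC summit was 187522 bp from its TSS.

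SLC1A4 (ENSG00000115902.11, chromosome 2, 64988477 to 65023865, plus strand) had POL2 not at its canonical TSS but 643 to 905 bp upstream of it, 4 to 266 bp past an annotated upstream TSS. The ranks were 5251 and 3752 in WT replicates 1 and 3 and 2928, 2799 and 4446 in SLK-KO, and WT replicate 2 had none. SLC43A1 (ENSG00000149150.9, chromosome 11, 57484534 to 57515780, minus strand) was the member with no summit of either antibody within 1 kb or in its body. The nearest POL2 summit lay 14912 bp from its canonical TSS in WT replicate 1 and 50654 to 122776 bp in the others, and the nearest MYC summit 141953 bp.

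**Figure D3:**
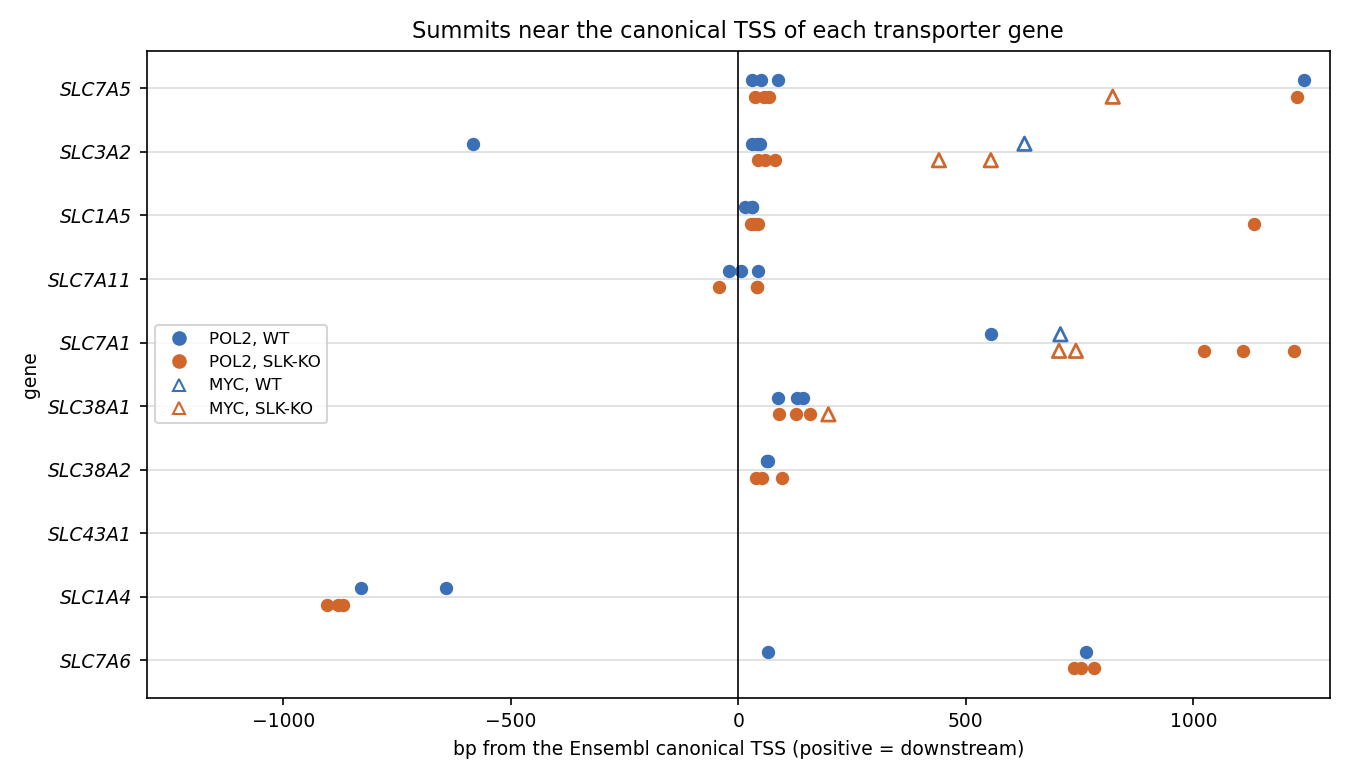
Distance in bp of each MYC (triangles) and POL2 (circles) summit from the canonical TSS of each gene, positive downstream, for WT (blue) and SLK-KO (orange) libraries. POL2 stands within 158 bp of the TSS at SLC7A5, SLC3A2, SLC1A5, SLC7A11, SLC38A1 and SLC38A2 and away from it at SLC7A1 and SLC1A4. The MYC summits drawn (those at the first SLC3A2 TSS are outside the range) lie 198 to 823 bp downstream of the canonical TSS. Those drawn at SLC3A2 and SLC38A1 lie upstream of a nearer annotated TSS, which is not drawn.

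To compare genotypes without the effect of list length, the 3615 coding genes with POL2 in all 6 libraries were ordered in each library by their best promoter summit. A gene's place is a percentile, 0 being the best. The order tells which genes stand ahead of others in a library and not how much POL2 is bound. Of the 6 members in this order, 2 had every SLK-KO library behind every WT library, against 14.9% of the 3615 genes, and 0 had every SLK-KO library ahead, against 14.9% (538 and 540 genes). The exact permutation test of 3 against 3 libraries cannot go below p = 0.1. An unadjusted p under 0.05 was thus not possible for any gene. The lowest Benjamini-Hochberg adjusted p over all 3615 genes was 0.335, so no gene passed. The median difference (SLK-KO minus WT) was 0.618 percentile points over the 6 members and 0.0830 over all genes.

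SLC38A1 moved the farthest of the 6. It held places 893, 758 and 954 of 3615 in WT and 1570, 1814 and 1611 in SLK-KO. Its mean percentile was 24.0 ± 2.78 (SD, n = 3) for WT and 46.0 ± 3.62 (SD, n = 3) for SLK-KO. SLK-KO minus WT was thus 22.0 points, with p = 0.1 by exact permutation and 0.335 after adjustment. A difference at least as large toward the back was found for 300 genes, 8.30% of those ordered. Without WT replicate 2, over 6567 genes with POL2 in the 5 other libraries, the difference was 13.8 points, and the groups still did not overlap. Percentile points over 6567 genes and over 3615 genes are not directly comparable. The gap between genotypes exceeded the spread of the replicates, and the test does not reach the threshold.

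SLC38A2 held places 18, 16 and 18 in WT and 57, 26 and 46 in SLK-KO. The mean percentiles were 0.452 ± 0.0320 and 1.16 ± 0.435 (SD, n = 3 each). SLK-KO minus WT was 0.710 points, with p = 0.1 by exact permutation and 0.335 after adjustment. Without WT replicate 2 the difference was 0.381 points, over the larger set of 6567 genes. The gene stayed within the first 57 of 3615 in each library. The coding genes with the places most like those of SLC38A2 over the 6 libraries were NFKBIZ, FZD8 and ACTB, at mean absolute differences of 0.337, 0.346 and 0.355 percentile points.

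The 4 others overlapped between genotypes. SLC3A2 held places 94, 88 and 77 in WT and 158, 86 and 72 in SLK-KO, 0.526 points apart (p = 0.9 by exact permutation, 0.963 after adjustment), and −0.202 points without SLK-KO replicate 1. This is the promoter shared with SNHG1. With canonical TSS only, SLC3A2 held places 400, 201 and 377 in WT and 339, 541 and 282 in SLK-KO among 3270 genes, 1.88 points apart (p = 0.6 by exact permutation). SLC7A5 held places 850, 880 and 980 in WT and 814, 858 and 820 in SLK-KO, and SLK-KO minus WT was −2.01 points (p = 0.2 by exact permutation, 0.476 after adjustment). The WT and SLK-KO SDs of SLC7A5 were 1.88 and 0.660 points. Its difference was −0.913 points without WT replicate 3 (over 3724 genes) and −1.10 without WT replicate 2 (over 6567 genes).

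SLC1A5 had a mean percentile of 37.1 ± 9.40 in the WT libraries and 43.6 ± 8.29 in the SLK-KO libraries (SD, n = 3 each), 6.51 points apart (p = 0.5 by exact permutation, 0.724 after adjustment). Single libraries set this value, which was 1.52 without WT replicate 3, 1.88 without SLK-KO replicate 3, 9.89 without SLK-KO replicate 2 and 10.9 without WT replicate 1. For SLC7A11 the means were 60.9 ± 5.48 and 57.6 ± 18.3 (SD, n = 3 each), and SLK-KO minus WT was −3.36 points (p = 0.9 by exact permutation, 0.963 after adjustment), and 6.76 points without SLK-KO replicate 1. For both genes the difference was smaller than the SD of each group. By median place the order was SLC38A2 (22), SLC3A2 (87), SLC7A5 (854), SLC38A1 (1262), SLC1A5 (1441) and SLC7A11 (2221). SLC38A2 and SLC3A2 were in the best 10% of the 3615 genes and overlapped with no neighbour, while the places of each pair of neighbours from SLC7A5 on overlapped.

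SLC1A4 and SLC7A6 are missing from that order because WT replicate 2 lists neither. In the 6567 genes of the 5 other libraries, SLC7A6 held places 5743 and 5031 in WT and 2419, 1192 and 1776 in SLK-KO. It was the 1 member with every SLK-KO library ahead, a pattern found for 19.8% of those genes. Its difference was −54.7 percentile points (exact permutation p = 0.1, the smallest of 10 relabellings), and 13 genes, 0.198%, had a difference as low or lower. SLC7A6 was singled out after its values were seen. The WT replicate 1 summit lies at the same place as the SLK-KO summits, and that of WT replicate 3 does not. SLC1A4 held places 4818 and 3614 in WT and 2884, 2747 and 4105 in SLK-KO, which overlapped (difference −14.8 points, exact permutation p = 0.3).

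**Figure D4:**
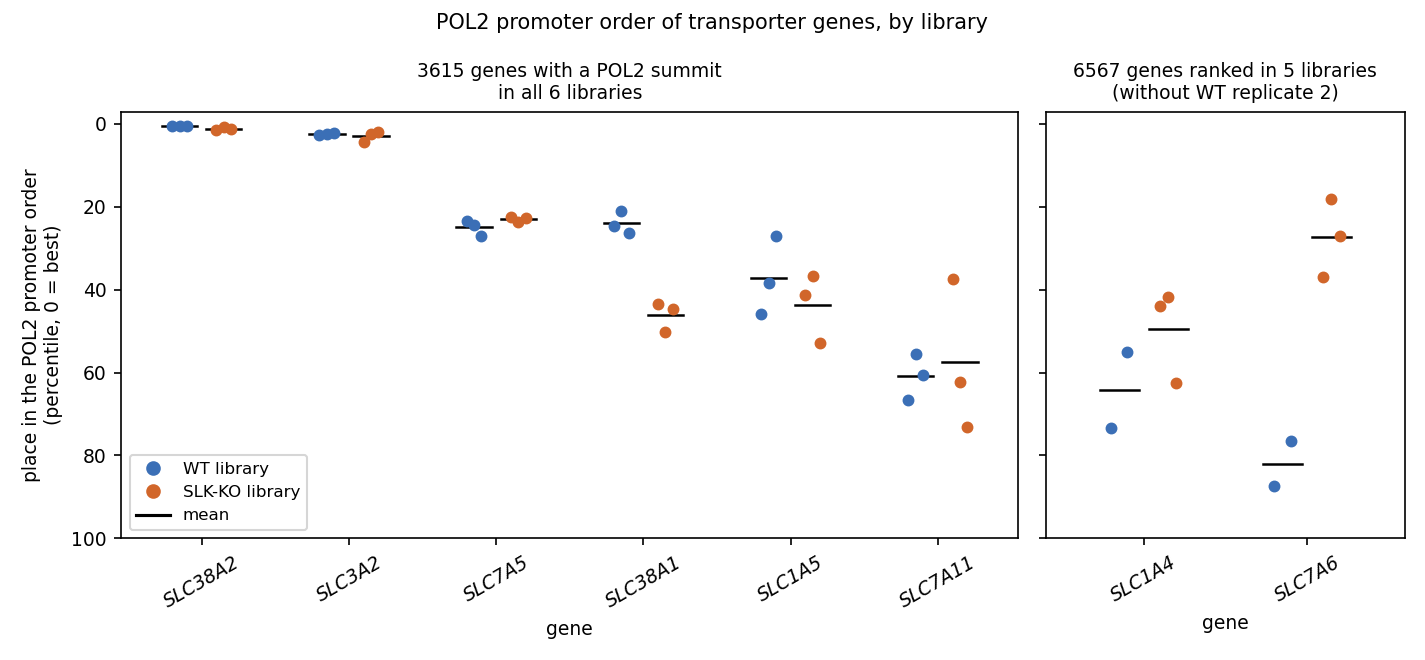
Place of each gene in the POL2 promoter order as a percentile (0 = best, axis inverted), 1 point per library, WT in blue and SLK-KO in orange, lines at the means, with the order over all 6 libraries on the left and over 5 libraries without WT replicate 2 on the right. SLC38A1 lies lower in the 3 SLK-KO libraries, SLC7A6 lies higher, and the points of SLC3A2, SLC7A5, SLC1A5, SLC7A11 and SLC1A4 overlap.

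POL2 summits in gene bodies were few. Body summits, counted per 10000 summits of the library, were found in at least 1 library for 5 of the 10 members and 21.4% of coding genes. SLC38A1 had 9, 1 and 1 such summits in WT and 2, 2 and 0 in SLK-KO. Per 10000 summits the means were 2.75 ± 2.23 and 0.782 ± 0.689 (SD, n = 3 each), and SLK-KO minus WT was −1.97 (p = 0.3 by exact permutation, 1 after adjustment). WT replicate 1 held the 9, spread from 3829 to 59156 bp past the canonical TSS, and without it the difference was −0.712. One place, 3579 to 3829 bp past the TSS in intron 1, recurred in 2 WT and 2 SLK-KO libraries.

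SLC7A5 had 2, 1 and 1 body summits in WT and 2, 2 and 3 in SLK-KO, all in intron 1, and 1.39 ± 0.522 and 1.40 ± 0.404 per 10000 summits (SD, n = 3 each; exact permutation p = 1). They recurred at 13037 to 13201 bp from the TSS in 1 WT and 3 SLK-KO libraries and at 15361 to 15792 bp in 2 WT and 2 SLK-KO libraries. SLC7A1 was the 1 member with every SLK-KO library above every WT library, against 9.98% of the 4279 coding genes tested, and 0 members had every SLK-KO library below, against 1.50%. Its single summit in each SLK-KO library lies 1024 to 1222 bp from the TSS, just past the window, and gave 0.596 ± 0.0629 per 10000 against 0 (exact permutation p = 0.1, adjusted 0.871). SLC7A6 had 1 summit in the last exon, in the 3' untranslated part, in SLK-KO replicates 1 and 3, and SLC3A2 had 1 in SLK-KO replicate 2. The lowest adjusted p over the 4279 genes was 0.871. The exact permutation test cannot go below p = 0.1, so no unadjusted p could be under 0.05.

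**Figure D5:**
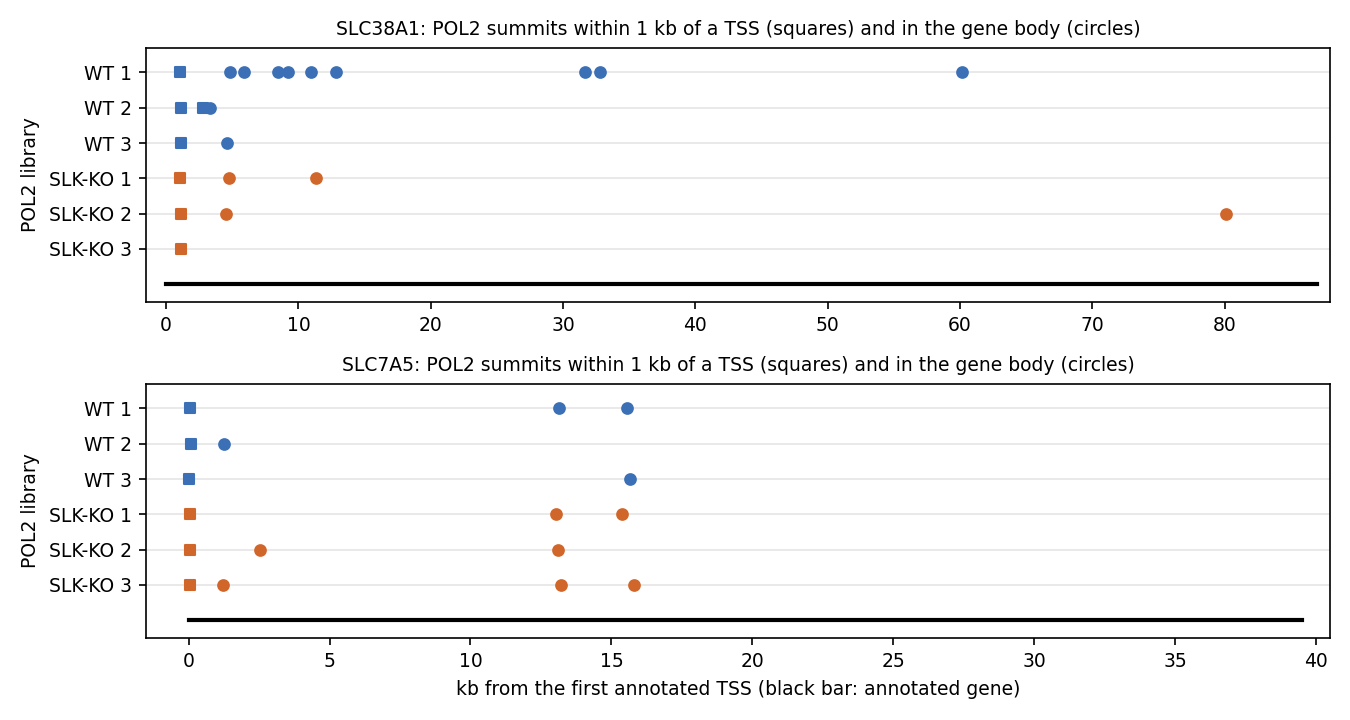
POL2 summits along SLC38A1 and SLC7A5 in kb from the first annotated TSS of each gene, 1 row per library, squares within 1 kb of a TSS and circles in the gene body, WT in blue and SLK-KO in orange. WT replicate 1 has 9 circles in SLC38A1, and in SLC7A5 the circles gather near 13 and 15 kb in both genotypes.

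E-boxes were counted at the MYC summits of these genes. Of the 12 MYC summits at members, 1 (SLC7A5) had CACGTG within 100 bp. Over all MYC summits within 1 kb of a coding TSS the share was 39.6%, 44.3% and 44.4% in the WT libraries and 30.9%, 29.9% and 30.3% in the SLK-KO libraries. The 12 summits lie at 5 places, so they are not independent, and 4 of them share the SLC3A2 and SNHG1 promoter. By place the count is 1 of 5, which is too few to set against these shares.

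The RefSeq promoter sequences used hold 16 promoters of these genes (250 bases before to 50 after each start). These were searched on both strands for 4 motifs. SLC7A11 has no promoter among them, and SLC38A1 has none at its canonical start, so neither of these was searched. CACGTG was in 3 of 16, against 8.34% of 22199 coding promoters. CACGCG was in 4 of 16 (14.3% of all). The amino acid response core TGATGNAA was in 5 of 16 (2.69% of all), and TGACNNNGC, the core of the antioxidant response element bound by NRF2, in 5 of 16 (13.8% of all). CACGTG is its own reverse complement and overlaps with none of the other 3 at these promoters. Counted from the RefSeq start, its first base is at −130 at SLC7A5, at −112 at SLC43A1 and at −50 at an internal start of SLC1A5.

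TGATGNAA, in capitals on either strand, is shown at the 5 promoters that hold it, because it is the core on which ATF4 acts with C/EBP proteins. The windows are chr2:64989382-64989409 at SLC1A4, chr19:46784894-46784921 at an internal start of SLC1A5, chr12:46266503-46266530 at a second start of SLC38A1, chr11:62881726-62881748 at a start of SLC3A2 inside the gene, and chr13:29595664-29595691 at SLC7A1.
SLC1A4: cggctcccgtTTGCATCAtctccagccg
SLC1A5: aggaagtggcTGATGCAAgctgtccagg
SLC38A1: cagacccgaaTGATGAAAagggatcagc
SLC3A2: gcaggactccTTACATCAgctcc
SLC7A1: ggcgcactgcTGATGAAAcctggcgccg
These are matches of letters in RefSeq sequence of GRCh38.p14 and not measured binding. The 300 bases searched at these 5 starts held 1 POL2 summit in all, in SLC38A1. The ratio of observed to expected CpG ranged over the 16 promoters from 0.331, at an internal start of SLC1A5, to 1.10, at the first start of SLC3A2. It exceeded the median of all coding promoters (0.737) at 12 of the 16 and the upper quartile (0.901) at 5. The canonical SLC3A2 start (0.608), the canonical SLC43A1 start (0.681) and the second SLC38A1 start (0.454) lay below the median, and SLC7A5 (0.980), SLC38A2 (0.873), SLC7A1 (0.975) and SLC7A6 (1.04) above it.

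Further carriers of amino acids were counted in the same way. Of 43 further amino acid transporter genes, 13 (30.2%) had a POL2 promoter summit in at least 1 library, below the 53.7% of all coding genes. In all 6 libraries 6 of the 43 had one, beside 18.0% of coding genes, and 5 (11.6%) had MYC in at least 1 library, beside 9.66%. SLC6A9, a glycine carrier, had MYC in 2 WT libraries (ranks 153 and 190) and 2 SLK-KO libraries (ranks 439 and 459). SLC6A6, the taurine carrier, had it in 1 WT library (rank 327) and 3 SLK-KO libraries (ranks 643, 65 and 251). SLC38A6, of the family of SLC38A1, had it in 2 SLK-KO libraries (ranks 451 and 70), and the mitochondrial carriers SLC25A13 and SLC25A22 in 1 each (ranks 629 and 1218). None of the 43 had either antibody in 3 SLK-KO and 0 WT libraries.

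The kinase complex mTORC1 senses the amino acids that these carriers bring in. Of 33 genes listed for it, 32 were matched by symbol, and 28 (87.5%) had a POL2 promoter summit in at least 1 library, above the 53.7% of all coding genes. In all 6 libraries 7 (21.9%) had one, beside 18.0% of coding genes, and MYC was found at 4 (12.5%) in at least 1 library, beside 9.66%. SEH1L, a GATOR2 subunit, had MYC in 2 WT libraries (ranks 65 and 189) and 3 SLK-KO libraries (ranks 41, 167 and 59). LAMTOR2, a Ragulator subunit, had it in 1 WT library (rank 76) and 3 SLK-KO libraries (ranks 254, 212 and 124). ITFG2, a KICSTOR subunit, had it in 0 WT and 3 SLK-KO libraries (ranks 564, 650 and 453), and RHEB, the activating GTPase, in 1 SLK-KO library (rank 690). The pattern of ITFG2, 3 SLK-KO and 0 WT libraries, was found for MYC at 0.874% of coding genes. WDR59, of GATOR2, was the 1 gene of the list with that pattern in POL2, which 1.54% of coding genes had. The ranks of ITFG2 lie beyond the ends of all 3 WT MYC lists.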

How the data were processed

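ChIP-seq summits of MYC and POL2 came from 12 libraries of PC-3 cells, 3 for each antibody in each genotype. Per the labels, the authors ran nf-core/chipseq 2.1.0 on 50 bp paired-end reads against GRCh38.p14, and the submitters' processing notes name BWA 0.7.18-r1243 and MACS3 3.0.1. Each deposited list gives summits of 1 library with a score read as −log10 of the q-value, the authors' own value, used only to rank within that list. The control used for calling is not given in the sources used here. Of 87308 summits, 323 outside chromosomes 1 to 22, X and Y were not used, and none lay past a chromosome's end in the GRCh38 sequence used here.

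Summits were assigned to GENCODE 44 genes in Python 3.11.15 (numpy 2.4.6, pysam 0.24.0). Presence was counted without a test. POL2 promoter order and body summits were compared between genotypes by exact two-sided permutation (20 relabellings), with Benjamini-Hochberg adjustment over all genes. The calls of presence and of genotypes that do not overlap were checked with changes put into the real lists. Members and lists were chosen with earlier results of these data known. Named beside the members were genes with a TSS within 1 kb of a member's summit, up to 5 genes per further list by number of MYC libraries, SLK, cell type markers (some not reported here), and the 3 genes most like the best-ranked member. Alternatives covered windows, scores, list length, TSS set, motif distance, scale and each library.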

Additional observations from a re-analysis of the deposited data

How the results depend on the processing

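The number of members with MYC in at least 1 library (4) was 2 with a 500 bp window, 2 with scores of at least 5 and 1 with lists of equal length, and ranged from 2 to 4 with each library left out. The number with MYC in at least 2 SLK-KO libraries (2) was 1, 1 and 0 under the same settings and ranged from 1 to 2, being 1 without SLK-KO replicate 1 or 2. The number with MYC in at least 2 WT libraries (1) was 0 with canonical TSS only and ranged from 0 to 1, being 0 without WT replicate 1 or 3. With lists of equal length, 1 member had POL2 in 3 SLK-KO and 0 WT libraries. The number of members with every SLK-KO library ahead in POL2 order (0) was 1 with scores of at least 5 and ranged from 0 to 1, being 1 without WT replicate 1 or 2 or SLK-KO replicate 2. For body summits, the number with every SLK-KO library above (1) was 2 with canonical TSS only and ranged from 1 to 2, and the number below (0) ranged from 0 to 1, being 1 without WT replicate 3. With each library left out, 3 differences changed sign. In POL2 order, SLC3A2 ranged from −0.202 (without SLK-KO replicate 1) to 0.985 and SLC7A11 from −11.2 to 6.76 (without SLK-KO replicate 1). In body summits, SLC7A5 ranged from −0.212 to 0.308, being −0.0984, −0.179 and −0.212 without WT replicate 1, WT replicate 3 and SLK-KO replicate 3. Shorter lists and fewer libraries leave fewer summits by construction. Otherwise the cause was not tested. Of the remaining values, 106 counts stayed within 1.5 times the reported one, members with POL2 in at least 2 WT libraries (8) being 6 with lists of equal length or without WT replicate 1 or 3. The remaining 105 differences did not change sign, and 3 of them, in body summits of SLC3A2 and SLC7A6, became 0.

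In POL2 promoter order, deviations from the group means were nearly uncorrelated between libraries of equal number (0.00861, 0.00888 and −0.0162). This gave no sign of pairing by number, but with 3 libraries per group it cannot show that the samples were unpaired. A replicate block leaves every difference as it is by construction, such as the 22.0 points of SLC38A1 in POL2 order, and changes only the p (0.25 by exact sign-flip permutation, the smallest of 8 flips). Depth is unknown, and summit lists show neither the amount bound nor RNA.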
